A study of Homo sapiens with 4 samples.

Results

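Genes of the interferon response and of class I antigen presentation were read in sorted fractions of Huh7, an established human hepatocellular carcinoma line. They were taken from a list of 39 genes, and a gene was measured where the platform annotation gave at least 1 probe with that symbol alone. By this rule 35 of the 39 were measured, out of 18377 genes on the arrays. STAT2 and HLA-E had no such probe, and HLA-B and HLA-C shared each of their probes with another gene, so these 4 are not reported. A gene with several probes was read from the one that was brightest on average.

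Huh7 cells were divided by flow cytometry in a pair of sorts, each of which gave a marker-positive and a marker-negative fraction. The groups were CD133+ against CD133- Huh7 cells and ALDH+ against ALDH- Huh7 cells, with 1 array for each and 4 arrays in all. CD133 is a surface protein encoded by PROM1 and ALDH stands for aldehyde dehydrogenase, both used in this series to set cancer stem cells against other tumour cells. All fractions came from 1 cell line, and the labels name no interferon, infection or other treatment. Since each group is a single array, differences within a sort come without replicates and without a p-value. In such bulk RNA, fewer cells that express a gene and less RNA per cell cannot be told apart.

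Type I and type III interferons are secreted by cells that sense foreign nucleic acid. They activate a complex that holds STAT2 and IRF9 and binds the interferon-stimulated response element (ISRE). Interferon gamma acts at the gamma-activated site (GAS). The induced genes encode antiviral proteins and also the machinery that cuts peptides, carries them into the endoplasmic reticulum and loads them on class I molecules for display to T cells. Huh7 is widely used to study hepatitis C virus because it supports replication of the virus, and a subline derived from it carries a defective RIG-I.

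The binding elements named above are the sequence feature that most of these genes share, and short stretches upstream of the annotated starts are printed to show it. Windows of 300 bases, 250 before and 50 after each annotated start, were taken from RefSeq for build GRCh38.p14 and were at hand for 27 of the 35 measured genes. The ISRE was searched as GAAA, any 2 bases and GAAA again, and the GAS as TTCNNNGAA, both on either strand. The stretches lie at chr1:1013369-1013414 on the plus strand (ISG15), chr15:44711358-44711403 on the plus strand (B2M), chr6:32853808-32853853 on the minus strand (TAP1), chr6:32838773-32838812 on the minus strand (TAP2), chr10:89392492-89392544 on the plus strand (IFIT1), chr5:132490874-132490912 on the minus strand (IRF1) and chr14:24161187-24161225 on the plus strand (IRF9). Capitals mark ISRE matches in the first 5 and GAS matches in IRF1 and IRF9, and each is written along the strand of its gene.
ISG15: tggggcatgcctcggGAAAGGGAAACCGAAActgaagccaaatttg
B2M: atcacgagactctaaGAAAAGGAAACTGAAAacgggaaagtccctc
TAP1: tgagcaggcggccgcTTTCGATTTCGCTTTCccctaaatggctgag
TAP2: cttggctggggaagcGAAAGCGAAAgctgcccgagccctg
IFIT1: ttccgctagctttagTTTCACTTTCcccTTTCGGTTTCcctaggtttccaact
IRF1: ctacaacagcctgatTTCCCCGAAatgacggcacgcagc
IRF9: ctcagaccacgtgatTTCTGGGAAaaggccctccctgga

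In ISG15 and B2M a pair of overlapping ISRE matches ran along the gene's strand, beginning at -113 and -107 from the start of ISG15 and at -144 and -138 from the start of B2M. TAP1 held the same arrangement on the opposite strand at -134 and -128, and IFIT1 held a pair of separate matches at -116 and -103. The ISRE letters were in at least 1 window of 21 of the 27 genes (77.8%), against 4.12% of the 14210 genes on the arrays that had a window. They were found in 12 of 14 antiviral effectors, in ISG15, in B2M, in 5 of 6 genes of peptide supply and in 2 of 3 sensors. The GAS letters were in windows of 11 of the 27 genes (40.7%), against 9.17% of genes on the arrays. IRF1, IRF9 and IFI35 held GAS matches and no ISRE match. In IFI27, IFITM1 and MX1 a GAS match overlapped an ISRE match. A match describes the letters in the window and is not evidence of binding.

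**Figure D1:**
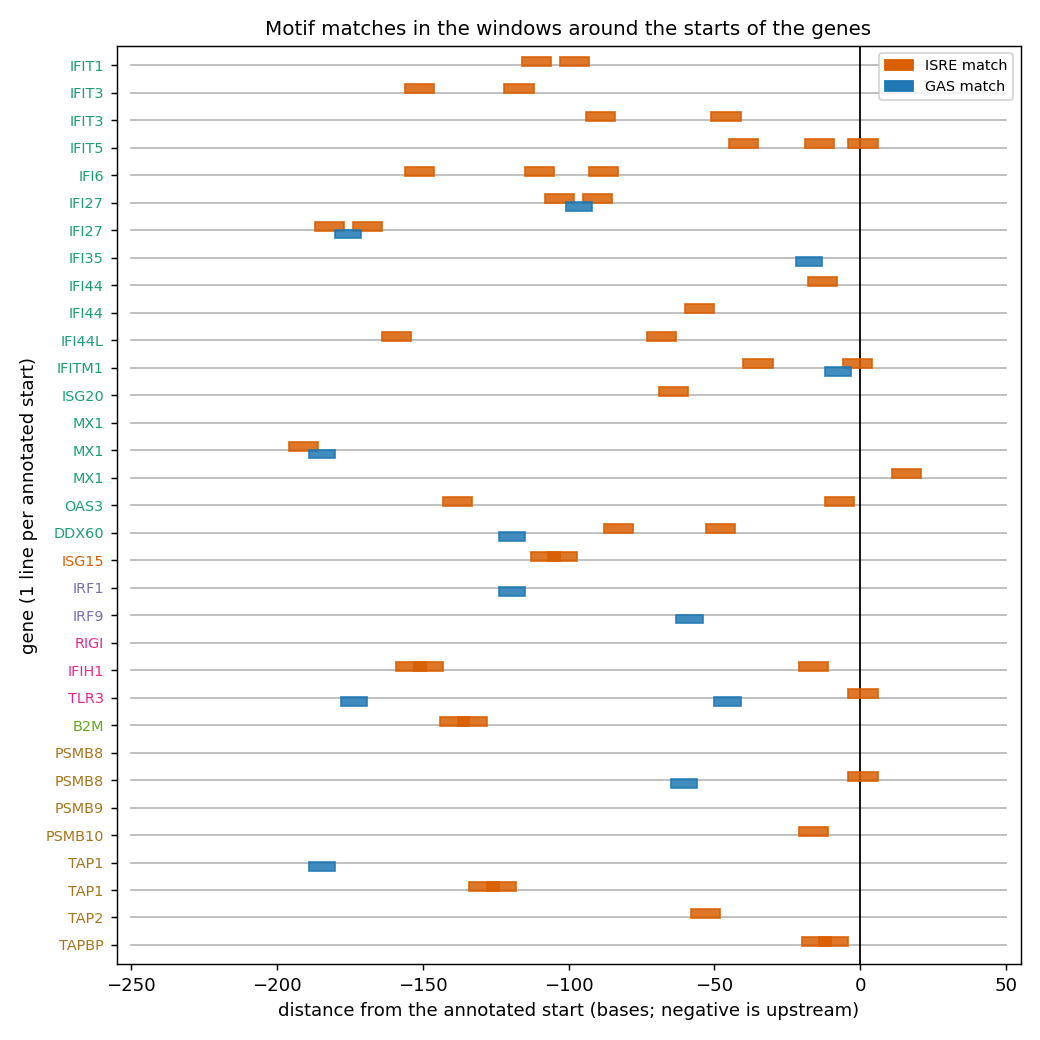
Positions of ISRE matches (orange) and GAS matches (blue) in windows from 250 bases before to 50 bases after each annotated start; the horizontal axis is the distance from the start in bases, and each line is 1 annotated start. Nearly all matches lie upstream of the start, and ISG15, B2M, TAP1, TAPBP and IFIH1 hold overlapping ISRE matches.

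The levels are log2 values from RMA (robust multi-array averaging), as deposited, and the floor used here is 4.98, the median of all values on the 4 arrays. Of the 35 genes, 15 (42.9%) were below the floor on all 4 arrays, beside 6200 of all 18377 genes (33.7%), 17 were above it on all 4, and ISG15, IFI35 and PSMB8 were above it on some arrays only. Those below it on every array were IFIT1, IFIT2, IFIT3, IFIT5, IFI27, IFI44, IFI44L, IFITM1, OAS2, OASL, DDX60, NLRC5 and the sensors RIGI, IFIH1 and TLR3. Levels differ between probes for reasons other than RNA amount, so no gene's level was set against that of another.

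The Huh7 label was checked against liver markers. All 9 measured markers of hepatocytes were above the floor on all 4 arrays, at levels from 6.98 to 11.9, with AFP, the fetal liver protein, at 11.8 in CD133+, 11.9 in CD133-, 11.6 in ALDH+ and 11.6 in ALDH- cells. APOH, APOA1 and APOB were 2.08-fold, 1.72-fold and 1.61-fold lower in CD133+ than in CD133- cells and TTR was 1.99-fold higher. None of the 9 reached 1.5-fold in the ALDH sort, but TTR fell only just short. It was at 11.2 in ALDH+ and 11.8 in ALDH- cells, lower in the positive fraction.

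Of 11 measured leukocyte markers LYZ, CD68, CD14 and NKG7 were above the floor on all arrays, and PTPRC, which encodes the pan-leukocyte antigen CD45, was between 2.45 and 2.64. LYZ, which encodes lysozyme, was at 7.52 in CD133+ and 8.22 in CD133- cells and at 7.77 in ALDH+ and 6.44 in ALDH- cells, 1.62-fold lower and 2.51-fold higher in the positive fractions. CD68 was at 7.10 in ALDH+ and 7.87 in ALDH- cells, 1.71-fold lower, and at 7.15 in CD133+ and 7.08 in CD133- cells. CD14 and NKG7 differed by less than 1.5-fold in either sort. The linear levels of the 11 summed to 511 in CD133+, 621 in CD133-, 594 in ALDH+ and 506 in ALDH- cells. Of 7 fibroblast and stellate cell markers COL1A1, COL1A2, COL3A1 and PDGFRB were above the floor on all arrays, none at 1.5-fold. DCN, LUM and ACTA2 were above it on none, and the 7 summed to between 239 and 284. Of 5 endothelial markers PECAM1 and CDH5 were above the floor in ALDH- cells alone, at 5.47 and 5.36 against 4.54 and 4.70 in ALDH+ cells, and the 5 summed to between 77.7 and 122. The part of these markers in the results was not tested. The sorted transcript PROM1 was at 9.0 in CD133+ and 5.32 in CD133- cells, and at 7.11 in ALDH+ and 8.39 in ALDH- cells. Median levels per array lay between 4.92 and 5.04, and precision is limited throughout by having 4 arrays.

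**Figure D2:**
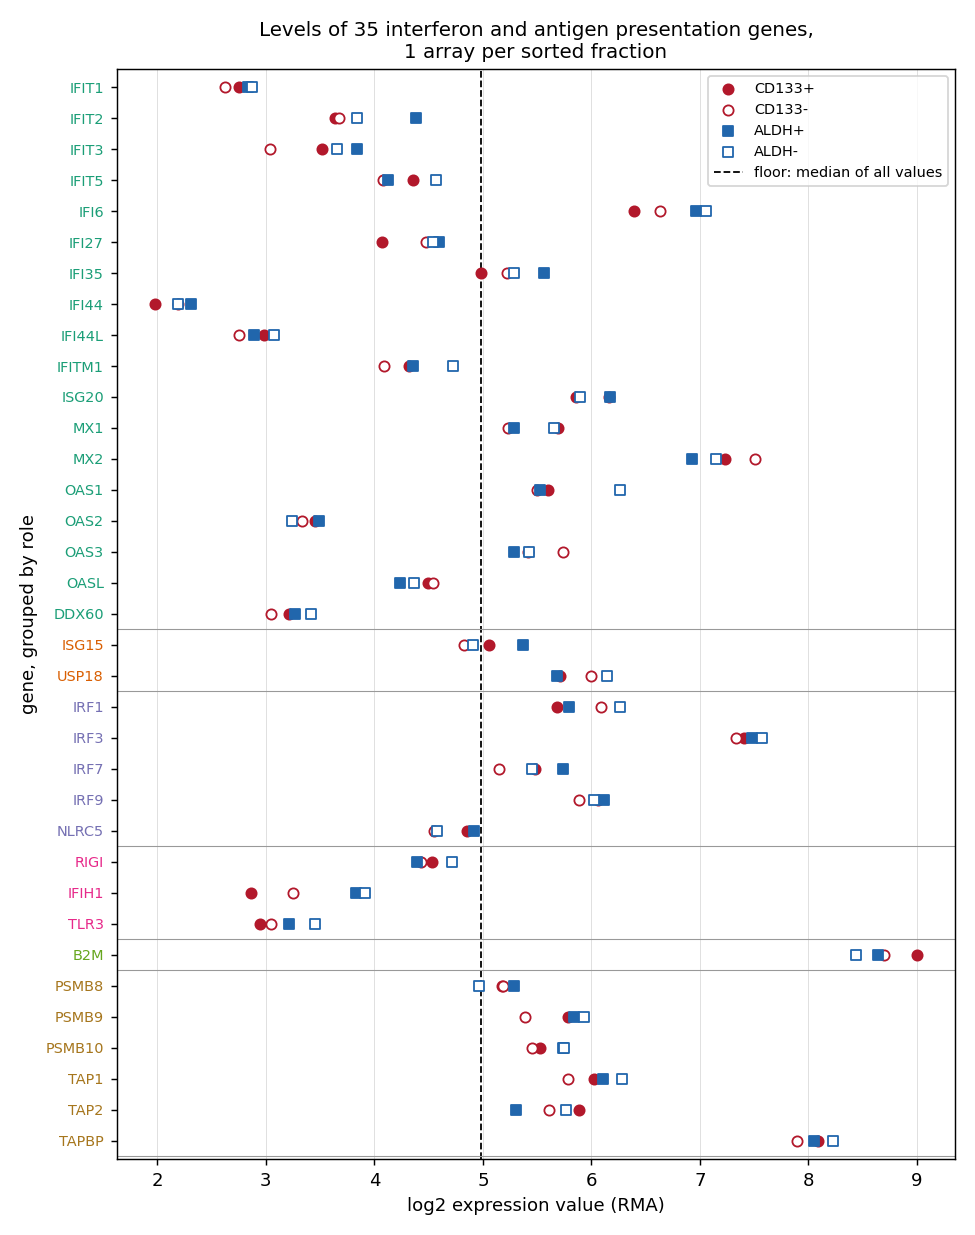
Log2 expression value on each of the 4 arrays (horizontal axis) for the 35 measured genes, grouped by role; red circles are the CD133 sort and blue squares the ALDH sort, filled for the positive and open for the negative fraction, and the dashed line is the floor of 4.98. The IFIT family, IFI44, IFI44L and the 3 sensors lie left of the floor in all fractions, and B2M lies far right of it.

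Neither sort set the antiviral and antigen presentation genes apart at 1.5-fold, with a single exception. In the CD133 sort 20 of the genes were above the floor; 0 of them were higher by 1.5-fold or more in CD133+ than in CD133- cells, and 0 were lower by as much. The background over all 11591 genes above the floor was 2.74% higher and 1.89% lower. In the ALDH sort 0 of 20 were higher by 1.5-fold or more in ALDH+ than in ALDH- cells and 1 of 20, OAS1, was lower, against a background of 4.15% higher and 6.60% lower over 11879 genes. Counts of 0 or 1 among 20 genes are near what these shares would give.

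Small differences leaned opposite ways in the sorts. The median difference over all 35 measured genes was 0.10 in the CD133 sort, with 21 genes higher and 14 lower in CD133+ cells. In the ALDH sort it was -0.09, with 13 higher and 22 lower in ALDH+ cells. Over all 18377 genes the medians were -0.01 for the CD133 sort and 0.03 for the ALDH sort. Of all these genes, 49.0% were higher in CD133+ cells and 53.8% in ALDH+ cells. The median size of the difference, regardless of sign, was 0.24 over the 35 genes and 0.18 over all genes for the CD133 sort, and 0.22 and 0.23 for the ALDH sort. These medians describe the arrays and were not tested.

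**Figure D3:**
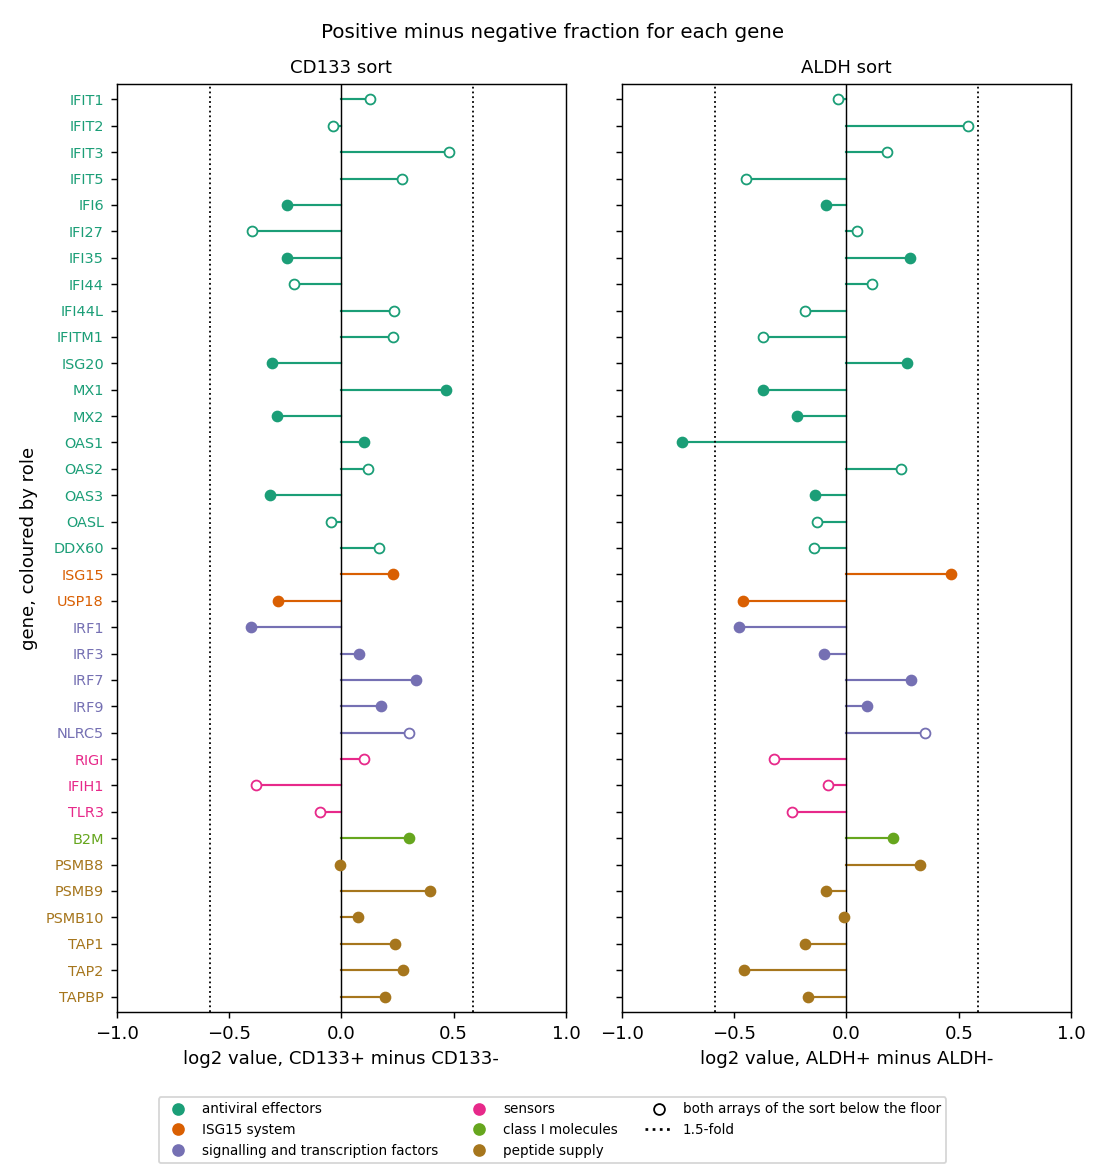
Log2 value of the positive minus the negative fraction (horizontal axis) for each gene in the CD133 sort (left panel) and the ALDH sort (right panel), coloured by role; open points mark genes below the floor on both arrays of that sort, and dotted lines mark 1.5-fold. OAS1 in the ALDH sort, at -0.73, is the only point beyond a dotted line.

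Among the antiviral effectors, OAS1 differed most. It encodes an oligoadenylate synthetase, which on binding double-stranded RNA makes the messenger that switches on RNase L. OAS1 was at 5.60 in CD133+ and 5.50 in CD133- cells, and at 5.53 in ALDH+ and 6.26 in ALDH- cells. The ALDH- array alone was high and the other 3 lay close together. The CD133 sort gave a difference of 0.10 and the ALDH sort one of -0.73, a level 1.66-fold lower in ALDH+ cells. The same family did not move as a block. OAS3, a larger synthetase, was at 5.42 in CD133+ and 5.74 in CD133- cells and at 5.28 in ALDH+ and 5.42 in ALDH- cells, lower in both positive fractions by 0.32 and 0.14. OAS2 and OASL were below the floor on every array, with differences from -0.13 to 0.24.

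The dynamin-like antiviral GTPases also parted. MX1, which blocks RNA viruses in the cytoplasm, was at 5.69 in CD133+ and 5.23 in CD133- cells, a difference of 0.47, and at 5.29 in ALDH+ and 5.66 in ALDH- cells, a difference of -0.37. CD133+ and ALDH- cells thus held the higher levels of MX1. MX2, which restricts HIV at the nuclear pore, was at 7.23 in CD133+ and 7.51 in CD133- cells and at 6.92 in ALDH+ and 7.15 in ALDH- cells. MX2 was lower in the positive fraction of each sort, by 0.28 and 0.22, but its positive and negative arrays overlapped because both CD133-sort arrays were the higher ones.

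Of the remaining effectors above the floor, the mitochondrial protein IFI6 was at 6.39 in CD133+ and 6.63 in CD133- cells and at 6.96 in ALDH+ and 7.05 in ALDH- cells. The exonuclease ISG20 was at 5.86 in CD133+ and 6.16 in CD133- cells and at 6.17 in ALDH+ and 5.90 in ALDH- cells. IFI35 was at 4.98, just under the floor, in CD133+ cells and at 5.22 in CD133- cells and at 5.57 in ALDH+ and 5.28 in ALDH- cells. ISG20 and IFI35 were thus lower in CD133+ and higher in ALDH+ cells, the reverse of MX1. Over the 7 effectors above the floor, 2 were higher and 5 lower in CD133+ cells, and again 2 were higher and 5 lower in ALDH+ cells. Of all genes above the floor, 42.9% were higher in CD133+ cells and 48.5% in ALDH+ cells.

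The IFIT proteins recognise foreign RNA ends and block its translation, and their genes are among the most strongly induced by interferon. IFIT1 was at 2.75 in CD133+ and 2.62 in CD133- cells and at 2.84 in ALDH+ and 2.87 in ALDH- cells; its 4 arrays hardly differed. IFIT2 had the largest positive difference of any of the 35 genes, 0.54 in the ALDH sort, at 4.38 in ALDH+ and 3.84 in ALDH- cells, but below the floor on both. It was short of 1.5-fold, which is 0.585 on the log2 scale. IFIT genes resemble each other in sequence and IFITM1 resembles IFITM2 and IFITM3, so single values of these genes are uncertain.

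The sensors of viral RNA lay below the floor throughout. IFIH1, which encodes MDA5, was at 2.87 in CD133+ and 3.25 in CD133- cells and at 3.83 in ALDH+ and 3.91 in ALDH- cells. TLR3, the endosomal receptor for double-stranded RNA, was at 2.95 in CD133+ and 3.04 in CD133- cells and at 3.21 in ALDH+ and 3.46 in ALDH- cells. Both were lower on both arrays of the CD133 sort than on both of the ALDH sort, at levels where the arrays measure little. RIGI, the sensor of uncapped viral RNA, was at 4.53 in CD133+ and 4.43 in CD133- cells and at 4.39 in ALDH+ and 4.72 in ALDH- cells.

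ISG15 and USP18 form a pair with opposite tasks, since ISG15 is a ubiquitin-like modifier and USP18 removes it from proteins and also damps signalling from the type I receptor. ISG15 was at 5.05 in CD133+ and 4.82 in CD133- cells and at 5.37 in ALDH+ and 4.91 in ALDH- cells. USP18 was at 5.71 in CD133+ and 5.99 in CD133- cells and at 5.69 in ALDH+ and 6.15 in ALDH- cells. ISG15 was therefore higher and USP18 lower in the positive fraction of each sort, and for each gene the positive arrays did not overlap the negative ones. Both negative arrays of ISG15 were below the floor, so that gene passed it through its positive fractions alone. Set against the floor, ISG15 was higher by 0.07 in CD133+ and by 0.39 in ALDH+ cells. USP18 has a near copy that shares 1 further probe with it, so its value is uncertain.

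Among the transcription factors, IRF1 was lower and IRF7 and IRF9 higher in both positive fractions. IRF1, which drives class I and immunoproteasome genes after interferon gamma, was at 5.69 in CD133+ and 6.09 in CD133- cells and at 5.79 in ALDH+ and 6.27 in ALDH- cells. Its differences were -0.40 and -0.48, or 1.32-fold and 1.39-fold lower, and the positive arrays did not overlap the negative ones. IRF7, which amplifies the production of type I interferon, was at 5.48 in CD133+ and 5.14 in CD133- cells and at 5.74 in ALDH+ and 5.46 in ALDH- cells. The higher negative array of IRF7 came within 0.02 of the lower positive one, with differences of 0.33 and 0.29. IRF9, the DNA-binding partner of STAT2, was at 6.06 in CD133+ and 5.89 in CD133- cells and at 6.12 in ALDH+ and 6.03 in ALDH- cells. Its differences, 0.18 and 0.09, were the smallest of those that did not overlap. IRF3, the factor switched on by phosphorylation below the sensors, stayed between 7.33 and 7.58. NLRC5, the transactivator of class I genes, was at 4.85 in CD133+ and 4.55 in CD133- cells and at 4.92 in ALDH+ and 4.57 in ALDH- cells, higher in both positive fractions but below the floor on all arrays.

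Over the 20 genes above the floor on at least 1 array, ISG15, IRF7 and IRF9 were higher on both positive than on both negative arrays. USP18, IRF1 and OAS3 were lower on both, OAS3 by so little that its arrays overlapped after a second quantile normalization and after centring each array. Thus 3 of 20 did not overlap in each direction, against a background of 12.8% higher and 16.7% lower over 12177 genes, shares close to that of the 20.

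Marker status over both sorts was tested with limma over the 4 arrays, the sort entering as a block, which leaves 1 residual degree of freedom. None of 12177 genes and none of the 20 passed an adjusted p of 0.05 (0.00% called), while 592 genes and 1 of the 20, IRF1, had an unadjusted p under 0.05. For IRF1 the estimate was -0.44 (SE 0.18), with lower values in 2 of 2 positive fractions and an adjusted p of 0.889 by limma, so it failed the correction. This fit joins a pair of different markers and is no test of either sort. The labels do not say if the fractions were from separate cultures, and the p-values then reflect only how these 4 arrays vary.

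The genes of class I antigen presentation above the floor were B2M and 6 genes of peptide supply. B2M, the light chain that every class I molecule needs, was at 9.0 in CD133+ and 8.70 in CD133- cells and at 8.64 in ALDH+ and 8.43 in ALDH- cells. It was higher in the positive fraction of each sort, by 0.30 and 0.21, or 1.23-fold and 1.15-fold. After a second quantile normalization its positive arrays no longer overlapped the negative ones.

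Most of the 6 genes of peptide supply were higher in CD133+ and lower in ALDH+ cells, all by less than 1.5-fold. Further class I and peptide loading genes, given below, were not mostly higher in CD133+ cells. PSMB9, a catalytic subunit of the immunoproteasome, was at 5.78 in CD133+ and 5.39 in CD133- cells and at 5.84 in ALDH+ and 5.93 in ALDH- cells. TAP1, one chain of the peptide transporter, was at 6.02 in CD133+ and 5.79 in CD133- cells and at 6.10 in ALDH+ and 6.29 in ALDH- cells. TAP2, the other chain, was at 5.89 in CD133+ and 5.61 in CD133- cells and at 5.31 in ALDH+ and 5.76 in ALDH- cells. All 3 were higher in CD133+ than in CD133- cells, by 0.40, 0.24 and 0.27, and lower in ALDH+ than in ALDH- cells, by 0.09, 0.18 and 0.46.

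TAPBP, which encodes tapasin, the bridge between transporter and class I molecule, was at 8.09 in CD133+ and 7.89 in CD133- cells and at 8.05 in ALDH+ and 8.23 in ALDH- cells. PSMB10 was at 5.53 in CD133+ and 5.45 in CD133- cells and near 5.74 in ALDH+ and 5.75 in ALDH- cells. PSMB8 departed from the rest, at 5.18 in CD133+ and 5.18 in CD133- cells and at 5.29 in ALDH+ and 4.96 in ALDH- cells. In all, 5 of the 6 genes were higher in CD133+ than in CD133- cells, by 0.08 to 0.40, and PSMB8 differed by -0.01. In the ALDH sort PSMB9, TAP1, TAP2 and TAPBP were lower in ALDH+ cells, by 0.09 to 0.46. PSMB10 differed there by -0.01, with the sign turned after a second quantile normalization, and PSMB8 by 0.33, with its ALDH- value below the floor. The median differences over the 6 were 0.22 (CD133 sort) and -0.13 (ALDH sort), beside -0.04 and -0.01 over all genes above the floor. Of all genes above the floor, 42.9% were higher in CD133+ cells and 48.5% in ALDH+ cells. None of the 6 reached 1.5-fold. PSMB8, PSMB9, TAP1, TAP2 and TAPBP had 3 probes each. Those of PSMB8, PSMB9 and TAP1 held identical values and are no independent reading. The 3 probes of TAP2 gave differences of 0.12 to 0.27 (CD133 sort) and -0.46 to -0.41 (ALDH sort). Those of TAPBP spread more widely, from 0.14 to 0.25 in the first, and at -0.28, -0.17 and -0.001 in the second.

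**Figure D4:**
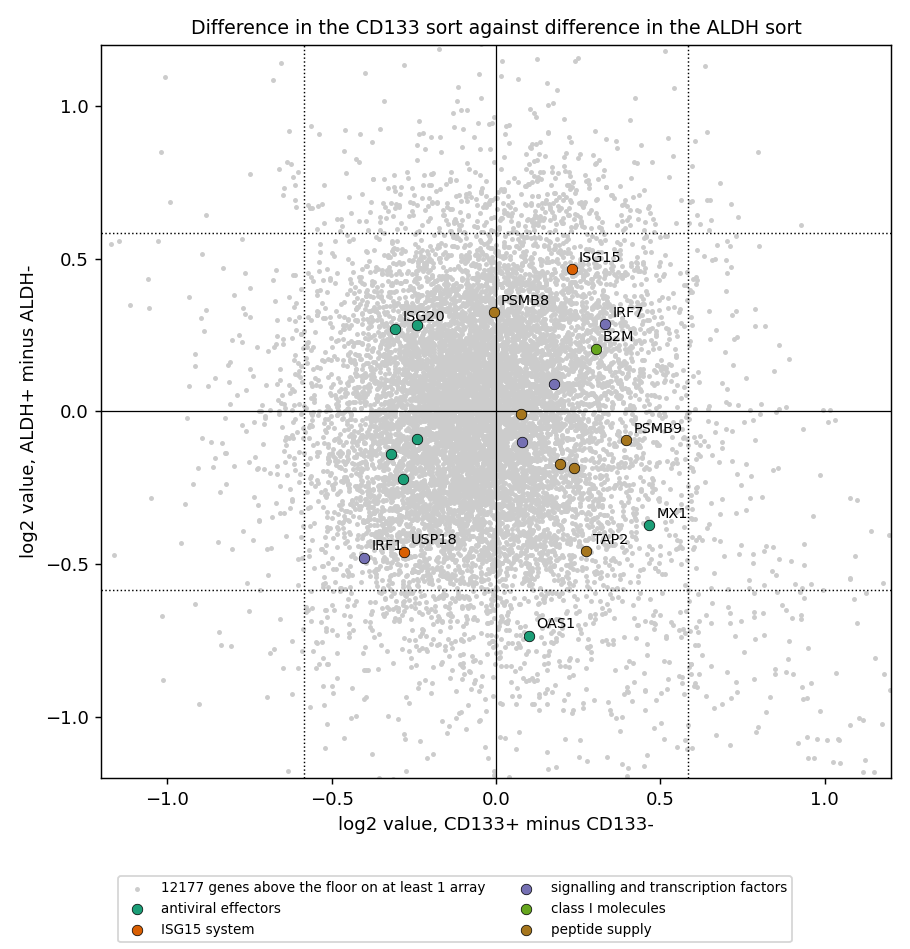
Difference in the CD133 sort (CD133+ minus CD133-, horizontal axis) against difference in the ALDH sort (ALDH+ minus ALDH-, vertical axis) in log2 units; grey points are all 12177 genes above the floor on at least 1 array, of which 116 lie outside the axes, and coloured points are the 20 interferon and antigen presentation genes. OAS1 alone lies beyond a dotted 1.5-fold line, and MX1 and TAP2 lie in the lower right with most genes of peptide supply.

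Levels also differed between the sorts whatever the marker status. B2M and MX2 were higher on both CD133-sort than on both ALDH-sort arrays, and IFI6, IFI35, IRF3, PSMB9, PSMB10 and TAP1 were lower. That is 2 of 20 higher and 6 of 20 lower, against a background of 30.2% higher and 15.1% lower over 12177 genes. IFI6 had the largest difference of the 20, with a mean of 6.51 on the CD133-sort and 7.01 on the ALDH-sort arrays, a difference of -0.49 (SE 0.18). It missed the threshold in the limma fit, with an adjusted p of 0.373 and lower values on 2 of 2 CD133-sort arrays. Again none of 12177 genes passed (0.00% called), with 1402 at an unadjusted p under 0.05. The sort and any separate handling of its arrays cannot be told apart.

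Other genes of the pathway were read from a fixed list of 77, of which 68 were measured and 41 were above the floor in each sort. At 1.5-fold, 2 of 41 were higher in CD133+ cells and 0 lower, while 1 of 41 was higher in ALDH+ cells and 5 of 41 lower. Over all genes above the floor the shares were 2.74% higher and 1.89% lower in CD133+ cells. In ALDH+ cells they were 4.15% higher and 6.60% lower.

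The receptors gave some of these. IFNGR1, the ligand-binding chain of the interferon gamma receptor, was at 8.84 in CD133+ and 8.22 in CD133- cells, 1.53-fold higher, and at 8.22 in ALDH+ and 8.47 in ALDH- cells. IFNAR2, a chain of the type I receptor, was at 6.47 in CD133+ and 6.61 in CD133- cells, and at 5.65 in ALDH+ and 6.50 in ALDH- cells, 1.80-fold lower in ALDH+ cells. IL10RB, a chain of the type III receptor, was 1.54-fold lower in ALDH+ cells, at 7.0 against 7.62 in ALDH- cells. The ALDH+ array alone was low for IFNAR2, whereas for IL10RB the ALDH- array alone was high. IFNAR1, IFNGR2, IFNLR1, JAK1 and TYK2 differed by at most 0.22 in either sort.

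The other genes lower in ALDH+ cells by at least 1.5-fold were PARP9, DTX3L and ERAP1. PARP9 and DTX3L encode partners in a complex that modifies histones. PARP9 was at 6.01 in CD133+ and 6.09 in CD133- cells, and at 5.33 in ALDH+ and 6.18 in ALDH- cells. DTX3L was at 6.31 in CD133+ and 6.71 in CD133- cells, and at 5.93 in ALDH+ and 6.70 in ALDH- cells. The partners were thus lower together in ALDH+ cells, 1.80-fold and 1.71-fold. Both were lower on both positive arrays than on both negative ones, as were 16.7% of the 12177 genes above the floor. For PARP9 the difference in the CD133 sort was only -0.08. ERAP1, which trims peptides in the endoplasmic reticulum, was at 6.92 in ALDH+ and 7.75 in ALDH- cells, and at 7.12 in CD133+ and 7.04 in CD133- cells. It is 1 of 7 further class I and peptide loading genes above the floor. Of these, 2 were higher and 5 lower in CD133+ cells, with a median difference of -0.05. In ALDH+ cells 2 were also higher and 5 lower, with a median of -0.15. The shares higher over all genes above the floor were 42.9% in CD133+ and 48.5% in ALDH+ cells. UBA7, the enzyme that activates ISG15 for conjugation, was higher in ALDH+ cells at 5.33 against 4.72 in ALDH- cells. The ALDH- value is below the floor, and set against the floor UBA7 was 0.34 higher, short of 1.5-fold. The secreted glycoprotein LGALS3BP was higher in CD133+ cells at 6.84 against 6.23 in CD133- cells.

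Of 7 measured interferon genes, IFNL2 and IFNL3 alone reached the floor on any array. IFNB1 lay between 2.07 and 2.48 and IFNG between 2.28 and 2.65, below the floor on every array. IFNL3 was above it on all arrays, at 5.54 in CD133+ and 5.82 in CD133- cells and at 5.69 in ALDH+ and 5.29 in ALDH- cells. IFNL2 was at 5.19 in CD133+ and 4.99 in CD133- cells, and at 4.98, just under the floor, in ALDH+ and 5.14 in ALDH- cells. IFNL2 and IFNL3 are near copies, so their signals cannot be assigned to either with confidence. The receptor brake SOCS3 was higher in both positive fractions, by 0.23 and 0.28, and SOCS1 by 0.07 and 0.13. The other brakes did not share this: PIAS1 differed by -0.05 and -0.22, and PTPN6 by 0.18 and -0.14. The measured class II genes CIITA, HLA-DMA and HLA-DPA1 were below the floor on all arrays.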

How the data were processed

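RNA of 4 sorted Huh7 fractions was read on Affymetrix arrays. The deposited values are log2 values from RMA, per the submitters' processing notes. The range of the values, 0.556 to 13.5, shows the log2 scale. The software version and genome build are not given in the sources used here. RMA equalizes the arrays, which hides any change common to most genes and shrinks differences of dim probes. Of 28869 probes, 19310 had 1 gene symbol, 1752 had several and 7807 were not listed; 19279 matched a RefSeq gene of GRCh38.p14 by gene identifier.

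Differences within a sort are log2 values of the positive minus the negative fraction; a gene counted where the brighter array reached the floor of 4.98. Both sorts together were fitted with limma 3.58.1 (lmFit, eBayes, Benjamini-Hochberg adjustment over all genes) in R 4.3.3, checked on simulated data. Python 3.11.15 handled the rest. Alternatives were another fold, floor, probe summary and scaling, other limma settings and leaving out arrays. Full values were given for any of the 35 genes at 1.5-fold and for fixed examples of each role. Some other genes at 1.5-fold were given in 1 sort only. Further genes were chosen after their values were seen. The genes and lists were chosen with earlier results of these data known. Motifs were searched in RefSeq windows; the window of 1 gene is not reported here.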

Additional observations from a re-analysis of the deposited data

Results flagged for a closer look

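The median difference of the 35 genes had opposite signs in the sorts, 0.10 (CD133 sort) and -0.09 (ALDH sort), 0.19 apart. MX1 (0.47 and -0.37, 0.84 apart), OAS1 (0.10 and -0.73, 0.83 apart) and TAP2 (0.27 and -0.46, 0.73 apart) were above the floor in both sorts, differed in opposite directions and lay at least 1.5-fold apart between the sorts. For TAP2 this held on its brightest probe only, since its other 2 probes lay 0.56 and 0.58 apart, short of 1.5-fold. Each sort has a single pair of arrays, so the difference between the sorts was not tested. How many of all genes above the floor would meet the same rule was not counted. MX1, OAS1 and TAP2 are therefore not shown to stand out from other genes.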

How the results depend on the processing

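OAS1, the only gene at 1.5-fold, gave a count of 1 lower in ALDH+ cells, which was 0 at 2-fold and 0 with a floor of 6.48, the upper quartile of the values; the other counts per sort were 0 under every alternative. The medians kept their signs, from 0.08 to 0.11 in the CD133 sort and from -0.12 to -0.09 in the ALDH sort. The limma fit called 0 genes for marker status without the sort as a block (305 at an unadjusted p under 0.05), with an intensity trend (520), over all genes with a probe (1165) and after a second quantile normalization (566), and 0 for the sort under the last 3 of these (1493, 1954 and 1189). Leaving out 1 array in the fit without the block gave 0 to 80 genes called, 80 without the CD133- array and 38 without the ALDH- array, with none of the 20 among them; the lone array is then assumed to vary like the others. OAS3 overlapped after a second quantile normalization and after centring each array, alternatives chosen after seeing the data. The 170 values of single genes under other settings stayed on their side of 1.5-fold. The labels give no replicate numbers, so the fractions were paired by sort alone, and that block changed no call. Signal near the floor limits the 15 dim genes.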

Other observations

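Outside the 35 genes, 564 genes on the arrays held the ISRE letters in a window, a set looked at after the data were seen. In the ALDH sort 326 of them were above the floor, and 44 of these (13.5%) were at least 1.5-fold lower in ALDH+ than in ALDH- cells, against 6.16% of 9162 genes without the letters. In the other direction 10 (3.07%) were at least 1.5-fold higher in ALDH+ cells, against 4.04%. In the CD133 sort 16 of 319 (5.02%) were at least 1.5-fold higher in CD133+ cells, against 2.47% of 8977 genes without the letters. There 7 (2.19%) were at least 1.5-fold lower in CD133+ cells, against 1.73%. The GAS letters, also outside the 35 genes, went with smaller contrasts. In the ALDH sort 8.04% of 771 such genes were lower in ALDH+ cells, against 6.25% without, and 4.41% were higher, against 3.97%. In the CD133 sort 2.51% of 757 were higher in CD133+ cells, against 2.56% without, and 2.11% were lower, against 1.71%. Windows with the ISRE letters had a median GC content of 52.0%, against 63.0% without. Windows were parted at their median GC content, and each gene was read from its first window within a part. A gene with windows in both parts was counted in both, so the parts share genes. The share at least 1.5-fold lower in ALDH+ cells was 13.1% with the letters and 7.93% without in the lower part. In the upper part it was 11.9% with and 5.39% without. These shares were not tested, and the part of base composition in them was not tested further.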
